A study of Mus musculus with 8 samples.

Results

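Mouse genes that answer to canonical Wnt signalling were followed in embryonic stem (ES) cells carrying altered *Tbxt* alleles: *Sp5*, *Axin2*, *Lef1*, *Tcf7*, *Tcf7l1*, *Nkd1*, *Dkk1*, *Sp8*, *Rnf43* and *Cdx1*. They are 10 of the 48440 genes in the count files and were listed by name, selected on the read counts of these same libraries in all genotypes, so their levels and fold changes are given here as a description without p-values. Of the 10 genes, 9 passed the filter on low counts and are among the 17049 genes tested; *Dkk1* did not pass, with 0 to 2 reads in a library.

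RNA was taken on day 1 after differentiation was started in culture. The 4 genotypes, with 2 libraries each, all go back to MK6 cells, which are C57BL/6J mouse ES cells. WT cells carry unaltered *Tbxt* (symbol *T* in the annotation), the T-box transcription factor gene of the early mesoderm. Tbxt delE6/delE6 cells lack exon 6 on both alleles, Tbxt delE6/+ cells lack it on 1 allele, and Tbxt Insert ASAY cells carry on both alleles an inserted pair of human Alu elements, AluSx1 and AluY, that flank exon 6. Every genotype, WT included, was differentiated with CHIR99021, an inhibitor of the kinase GSK3, after withdrawal of LIF and of the inhibitors of the 2i medium. The 2 Tbxt delE6/delE6 libraries come from different clones, and whether the replicates of the other genotypes share a clone is not given in the sources used here, so the spread between replicates may be partly technical. The insertion was made in cells grown on feeder fibroblasts and the exon 6 deletions without feeders.

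In canonical Wnt signalling, a Wnt ligand binds a Frizzled receptor with the co-receptor Lrp5 or Lrp6, which stops a complex of Axin, Apc, casein kinase 1 and GSK3 from marking β-catenin for degradation. β-catenin then enters the nucleus and joins the TCF/LEF factors on their target genes. An inhibitor of GSK3 such as CHIR99021 acts below the receptor, so it raises β-catenin without a ligand. Several targets feed back on the pathway: Axin2 rebuilds the destruction complex, Rnf43 removes Frizzled receptors from the surface, Dkk1 blocks Lrp5 and Lrp6, and Nkd1 binds Dishevelled. In the early embryo Wnt signals pattern the primitive streak and the tail bud, where Sp5, Sp8 and Tbxt itself are targets.

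Upstream sequences are shown for *Sp5*, whose mean level had the widest range over the 4 genotypes, and for *Axin2*, the most widely used readout of the pathway. They are the 250 bases before the transcription start in RefSeq on GRCm38.p6, at chr2:70474673-70474922 for *Sp5* and chr11:108920099-108920348 for *Axin2*, both on the plus strand and 5′ to 3′. Capitals mark TCF/LEF letters in *Sp5* and GC boxes, the letters that Sp factors are known to bind, in *Axin2*.
Sp5: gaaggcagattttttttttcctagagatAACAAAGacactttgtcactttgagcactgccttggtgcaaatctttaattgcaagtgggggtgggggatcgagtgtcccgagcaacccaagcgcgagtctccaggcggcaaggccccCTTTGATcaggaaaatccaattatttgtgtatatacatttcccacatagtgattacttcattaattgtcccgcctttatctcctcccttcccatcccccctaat
Axin2: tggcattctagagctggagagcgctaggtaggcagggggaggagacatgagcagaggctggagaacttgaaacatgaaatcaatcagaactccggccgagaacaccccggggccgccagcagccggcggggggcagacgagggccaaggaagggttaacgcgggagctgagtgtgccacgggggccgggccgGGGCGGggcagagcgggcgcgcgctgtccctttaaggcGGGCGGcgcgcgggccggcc
The TCF/LEF letters searched were CTTTGAA or else CTTTGAT, and CTTTGTA or else CTTTGTT, on either strand, and 14.8% of the 32851 windows of this length held at least 1 of them. The *Sp5* window held 2 matches, from 222 to 216 and from 104 to 98 bases before the start, and the *Axin2* window held none. The GC box, searched as GGGCGG on either strand, was in 32.7% of all windows, with 2 matches in *Axin2* and 0 in *Sp5*. Of the 9 listed genes with a window, 2 (*Sp5* and *Dkk1*) held TCF/LEF letters and 4 (*Axin2*, *Lef1*, *Tcf7* and *Tcf7l1*) a GC box, with no overlap between the matches. The T-box half-site TCACACC, in 3.33% of all windows, was in 0 of the 9. The RefSeq start that ends a window is not the GENCODE start for every gene: it lies 209, 365 and 6279 bases inside the gene for *Tcf7l1*, *Rnf43* and *Nkd1*, 169 for *Dkk1*, and outside it for *Lef1*. The *Tcf7* and *Lef1* windows each overlap another annotated gene, *A630014C17Rik* and *Gm43352*. The GC boxes of the *Tcf7* window follow a start codon with an open reading frame, so they may lie within coding sequence. All these matches are letters in a window and are not evidence of binding.

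The libraries held 24618587 to 28445952 reads on genes. Replicates differed beyond counting noise in every genotype, and most in Tbxt delE6/delE6. There the chi-square statistic per degree of freedom over genes was 11.4 against 2.79 to 3.47 in the other genotypes. Some values that rest on these libraries are therefore also given without one of them. Values printed without such a figure can move as well: over 16 alternative settings *Nanog* in Tbxt delE6/delE6 against WT ran from -1.37 to -0.77. *T* itself had 47 and 42 reads in WT, 26 and 22 in Tbxt delE6/delE6, 39 and 54 in Tbxt delE6/+, and 30 and 29 in Tbxt Insert ASAY. Its log2 fold change against WT was -0.81 ± 0.277 (SE) in Tbxt delE6/delE6, with an adjusted p of 0.0360 by edgeR's quasi-likelihood test and Benjamini-Hochberg adjustment, and the call was lost under 7 of 16 alternatives, DESeq2 among them. It was 0.17 in Tbxt delE6/+ (adjusted p = 0.651) and -0.60 in Tbxt Insert ASAY (adjusted p = 0.0826). A count over the whole gene does not show whether exon 6 is present. The 6 ES cell markers summed to 676 to 880 CPM, a read count scaled to the library size, in every library, and *Pou5f1*, a defining factor of ES cells, averaged 180 to 288 CPM in the 4 genotypes.

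*Sp5*, a zinc-finger factor of the Sp family and a direct Wnt target, was the listed gene that differed most from WT in Tbxt delE6/delE6 and Tbxt Insert ASAY, while in Tbxt delE6/+ *Lef1* and *Nkd1* differed more. Its level was 10.0 and 9.71 CPM in the WT libraries, 26.7 and 56.5 CPM in Tbxt delE6/delE6, 19.6 and 19.4 CPM in Tbxt delE6/+, and 46.2 and 47.6 CPM in Tbxt Insert ASAY. In Tbxt delE6/delE6, Tbxt delE6/+ and Tbxt Insert ASAY, 67.6%, 69.3% and 77.0% of all tested genes did not overlap WT. Separate pairs of libraries were therefore common, and for the listed genes they are given as description. For *Sp5* every mutant library was above both WT libraries. The log2 fold change against WT was 2.08 ± 0.251 (SE) in Tbxt delE6/delE6, 0.98 ± 0.267 in Tbxt delE6/+ and 2.25 ± 0.249 in Tbxt Insert ASAY, or 4.24-, 1.98- and 4.76-fold. Of 12837 tested genes averaging 2 CPM or more, 2 had a larger log2 fold change than *Sp5* in Tbxt delE6/delE6, 172 in Tbxt delE6/+ and 6 in Tbxt Insert ASAY. Its upstream window, with the TCF/LEF letters in capitals, was shown above.

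The 2 Tbxt delE6/delE6 libraries differed on *Sp5* by more than those of any other genotype. Replicate 2 was 2.11 times replicate 1, a log2 difference of 1.08, and 0.210% of the 12837 genes differed by as much or more between these libraries. In the other genotypes the replicates of *Sp5* differed by at most 0.05 on the log2 scale. Without replicate 2 the log2 fold change against WT was 1.44, and without replicate 1 it was 2.52, so the size of the difference depends on which of these clones is kept. Replicate 1 stood at 2.71 times the WT mean and replicate 2 at 5.73 times.

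*Axin2*, the scaffold protein that restores β-catenin degradation, differed less than *Sp5*. It stood at 31.3 and 32.6 CPM in WT, 30.7 and 42.5 CPM in Tbxt delE6/delE6, 47.6 and 45.3 CPM in Tbxt delE6/+, and 51.5 and 45.7 CPM in Tbxt Insert ASAY. All 4 libraries of Tbxt delE6/+ and Tbxt Insert ASAY were above WT, whereas Tbxt delE6/delE6 had 1 library below and 1 above WT. The log2 fold changes were 0.54 ± 0.116 in Tbxt delE6/+ and 0.61 ± 0.115 in Tbxt Insert ASAY. In Tbxt delE6/delE6 it was 0.20 ± 0.118, which became -0.06 without replicate 2 and 0.42 without replicate 1. Replicate 2 of this genotype was thus the higher library for *Axin2* as for *Sp5*.

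**Figure D1:**
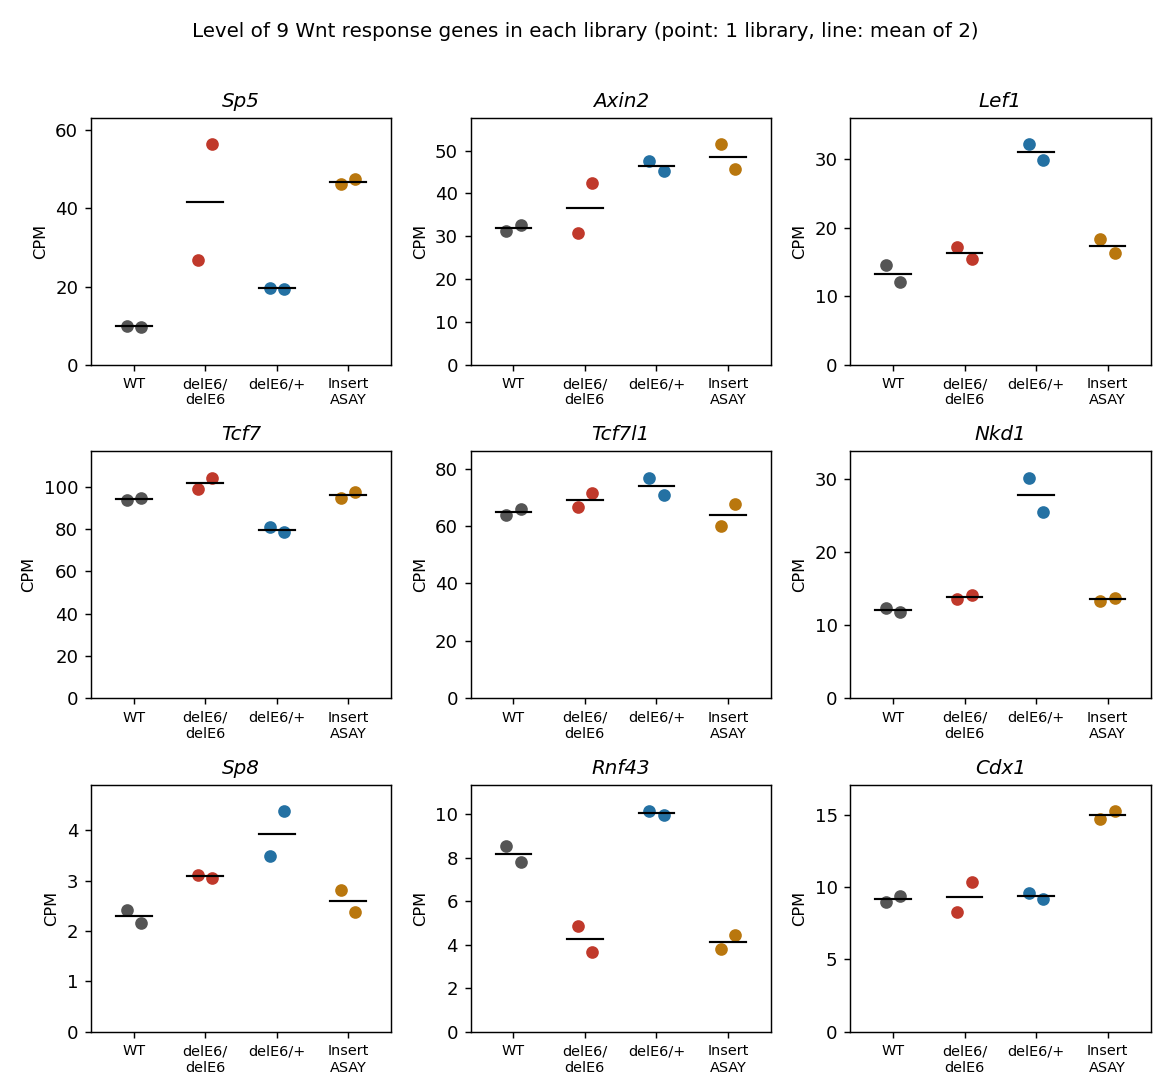
Level of each of the 9 tested Wnt response genes in CPM (y axis, from 0) in the 2 libraries of each genotype (x axis); points are libraries and lines are means. *Sp5* lies at 9.71 and 10.0 CPM in WT and at 19.4 CPM or more in every mutant library, *Lef1* and *Nkd1* stand apart in Tbxt delE6/+, and *Rnf43* is lowest in Tbxt delE6/delE6 and Tbxt Insert ASAY.

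Of the 3 TCF/LEF factors on the list, *Lef1* differed clearly between genotypes and *Tcf7* and *Tcf7l1* little. *Lef1*, an activating partner of β-catenin, stood at 14.5 and 12.0 CPM in WT, 17.2 and 15.4 CPM in Tbxt delE6/delE6, 32.2 and 30.0 CPM in Tbxt delE6/+, and 18.4 and 16.3 CPM in Tbxt Insert ASAY. The Tbxt delE6/+ libraries were above all others, with a log2 fold change against WT of 1.23 ± 0.105, beside 0.29 ± 0.111 in Tbxt delE6/delE6 and 0.38 ± 0.109 in Tbxt Insert ASAY. The WT replicates of *Lef1* differed by 0.27 on the log2 scale, as did or more 5.88% of genes, and the fold change in Tbxt delE6/+ ran from 1.09 without WT replicate 2 to 1.37 without WT replicate 1.

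*Tcf7*, which encodes TCF1, was the most abundant listed gene. Its lowest libraries were the Tbxt delE6/+ pair, at 80.7 and 78.6 CPM, below the 93.5 and 94.6 CPM of WT, for a log2 fold change of -0.24 ± 0.0501. The other mutant libraries ran from 94.5 to 104 CPM, with log2 fold changes of 0.11 and 0.03. *Tcf7l1*, encoding TCF3, the main repressing TCF of ES cells, ran from 60.1 to 76.9 CPM over the 8 libraries. Its log2 fold changes against WT were 0.09 in Tbxt delE6/delE6, 0.18 in Tbxt delE6/+ and -0.02 in Tbxt Insert ASAY, with an SE of about 0.07 in each.

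*Lef1* lies on chromosome 3 (131110471-131224356, plus strand, GRCm38), where many genes were higher in Tbxt delE6/+. The median log2 fold change of the 848 tested genes of chromosome 3 was 0.32 in this genotype, against -0.01 for the 16151 tested genes elsewhere; it was -0.01 on chromosome 3 in both Tbxt delE6/delE6 and Tbxt Insert ASAY. The 10 tested genes on each side of *Lef1*, between 129878606 and 133378235, had a median of 0.56 in Tbxt delE6/+, and 19 of these 20 were above 0. *Lef1* was 0.67 above that median on the log2 scale, and 1 neighbour, *Mcub* at 1.45, was above it. In Tbxt delE6/delE6 and Tbxt Insert ASAY the neighbours had medians of -0.11 and -0.10, and *Lef1* was 0.40 and 0.49 above them. The excess of *Lef1* over its neighbours in Tbxt delE6/+ was 0.77 with 5 genes a side and 0.63 with 20. How far the level of the whole region enters the *Lef1* value was not tested.

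**Figure D2:**
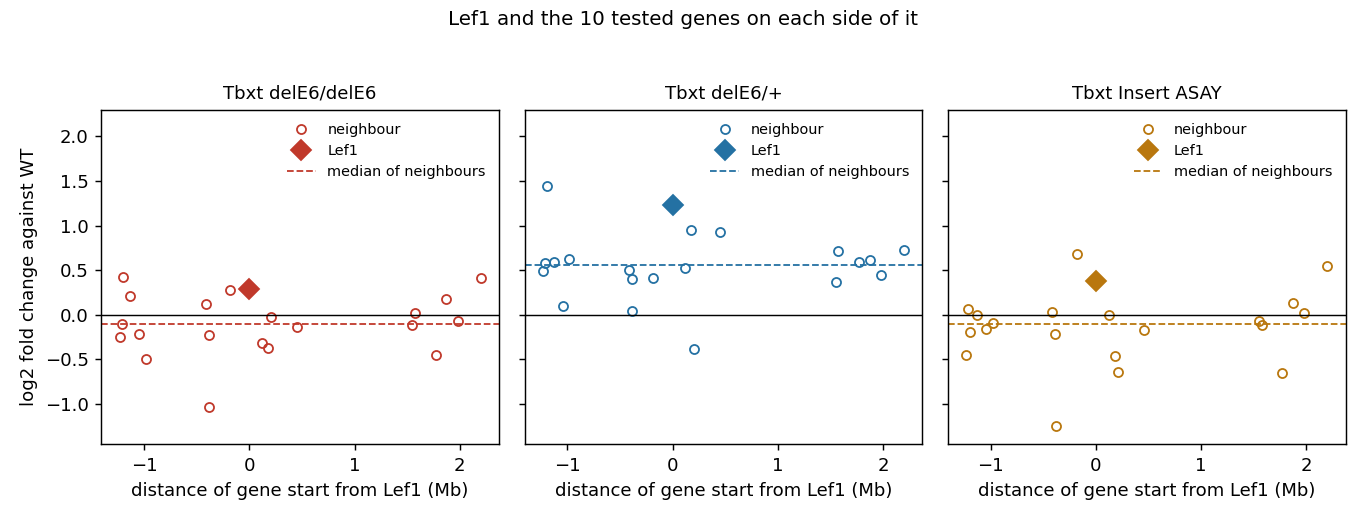
Log2 fold change against WT (y axis) of *Lef1* (diamond) and of the 10 tested genes on each side (open circles) by the distance of each gene's start from that of *Lef1* in Mb (x axis), 1 panel for each mutant line; the dashed line is the median of the 20 neighbours. In Tbxt delE6/+ the neighbours centre on 0.56 and *Lef1* lies at 1.23, and in the other lines they centre near -0.10.

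The feedback genes did not move together. *Nkd1*, which binds Dishevelled and damps the signal, stood at 12.3 and 11.8 CPM in WT, 13.6 and 14.1 CPM in Tbxt delE6/delE6, 30.2 and 25.5 CPM in Tbxt delE6/+, and 13.4 and 13.8 CPM in Tbxt Insert ASAY. Its log2 fold change was 1.21 ± 0.0965 in Tbxt delE6/+, beside 0.20 and 0.17 in the other lines. *Nkd1* lies on chromosome 8. Whether its level in Tbxt delE6/+ is linked to the shift on chromosome 3 was not tested. *Rnf43*, the ubiquitin ligase that clears Frizzled receptors, took another course. It stood at 8.55 and 7.82 CPM in WT, 4.86 and 3.67 CPM in Tbxt delE6/delE6, 10.1 and 9.97 CPM in Tbxt delE6/+, and 3.79 and 4.46 CPM in Tbxt Insert ASAY. In each line *Rnf43* did not overlap WT, as most tested genes did not. All libraries of Tbxt delE6/delE6 and Tbxt Insert ASAY were below WT and both Tbxt delE6/+ libraries above it. The log2 fold changes were -0.95 ± 0.152, 0.30 ± 0.137 and -0.99 ± 0.151 in Tbxt delE6/delE6, Tbxt delE6/+ and Tbxt Insert ASAY, and -0.75 in Tbxt delE6/delE6 without replicate 2. *Dkk1*, the secreted blocker of Lrp5 and Lrp6, was close to absent, with 0 reads in 5 libraries and 1 or 2 in the other libraries, under the 3 reads that a count of 0 allows.

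*Sp8* and *Cdx1* complete the list. *Sp8*, a close relative of *Sp5* that acts in limb and tail outgrowth, was the least abundant gene tested, at 2.42 and 2.16 CPM in WT, 3.12 and 3.04 CPM in Tbxt delE6/delE6, 3.48 and 4.37 CPM in Tbxt delE6/+, and 2.81 and 2.38 CPM in Tbxt Insert ASAY. Its counts of 58 to 107 reads a library leave wide errors, with log2 fold changes of 0.43 ± 0.192, 0.77 ± 0.186 and 0.18 ± 0.196. *Cdx1*, a homeobox factor of axial patterning, stood at 8.95 and 9.34 CPM in WT, 8.26 and 10.3 CPM in Tbxt delE6/delE6, 9.58 and 9.15 CPM in Tbxt delE6/+, and 14.7 and 15.2 CPM in Tbxt Insert ASAY. The Tbxt Insert ASAY pair was above every other library, with a log2 fold change of 0.71 ± 0.114 against 0.03 and 0.04 in the other lines. The *Cdx1* fold change in Tbxt delE6/delE6 ran from -0.15 without replicate 2 to 0.18 without replicate 1.

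**Figure D3:**
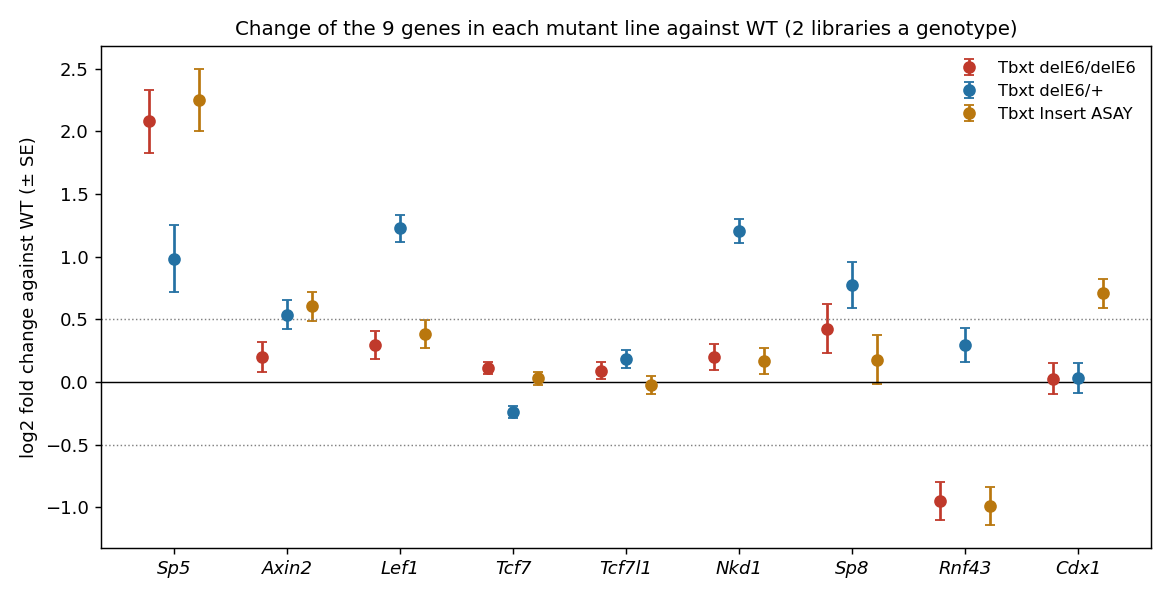
Log2 fold change against WT (y axis, points with bars of 1 SE from the edgeR fit) of the 9 tested Wnt response genes (x axis) in the 3 mutant lines; dotted lines mark 0.5 in either direction. *Sp5* is above 0.5 in every line, *Lef1* and *Nkd1* in Tbxt delE6/+, and *Rnf43* is below -0.5 in Tbxt delE6/delE6 and Tbxt Insert ASAY.

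The thresholds of the study were 0.05 for the adjusted p and 0.5 for the size of the log2 fold change. By these, 2 of the 9 genes passed in Tbxt delE6/delE6 against WT (*Sp5* higher, *Rnf43* lower), where 12.7% of all tested genes did, 6.12% higher and 6.59% lower. In Tbxt delE6/+ 5 passed, all higher (*Sp5*, *Axin2*, *Lef1*, *Nkd1* and *Sp8*), where 13.5% of all tested genes did, 6.60% higher and 6.89% lower. In Tbxt Insert ASAY 4 passed (*Sp5*, *Axin2* and *Cdx1* higher, *Rnf43* lower), where 21.3% of all tested genes did, 11.5% higher and 9.85% lower. These shares are printed for scale, since the genes were listed with these comparisons known and their count carries no weight of its own. The median log2 fold change of the 9 genes was 0.20, 0.54 and 0.18 in Tbxt delE6/delE6, Tbxt delE6/+ and Tbxt Insert ASAY, while that of all tested genes lay within 0.01 of 0. The 3 comparisons share the WT libraries.

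Setting the mutant lines against each other gave more listed genes past the thresholds in comparisons with Tbxt delE6/+, as it did among all tested genes. The genes were listed with these libraries known, so these counts too carry no weight of their own. *Axin2* differed by 0.07 between Tbxt Insert ASAY and Tbxt delE6/+, and *Cdx1* by 0.01 between Tbxt delE6/+ and Tbxt delE6/delE6. Against Tbxt delE6/delE6, the heterozygous line had a log2 difference of -1.10 ± 0.233 for *Sp5*, 0.93 for *Lef1*, 1.01 for *Nkd1* and 1.24 for *Rnf43*, and these 4 passed both thresholds where 22.2% of tested genes did (11.2% higher, 11.0% lower). The *Sp5* difference shrank to -0.45 without Tbxt delE6/delE6 replicate 2 and was -1.54 without replicate 1. Tbxt Insert ASAY against Tbxt delE6/+ passed for 6 genes: *Sp5* (1.27) and *Cdx1* (0.67) were higher and *Lef1* (-0.84), *Nkd1* (-1.04), *Sp8* (-0.60) and *Rnf43* (-1.28) lower, with 27.5% of tested genes called (14.6% higher, 13.0% lower). Tbxt Insert ASAY and Tbxt delE6/delE6 differed past the thresholds for *Cdx1* alone of the 9, at 0.68 ± 0.115, with 5.16% of genes called (2.79% higher). For *Sp5* that difference was 0.17 ± 0.216, and it turned from 0.81 without Tbxt delE6/delE6 replicate 2 to -0.28 without replicate 1.

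Levels per kilobase of exon placed *Tcf7* first in every genotype, at 35.8 ± 0.303 CPM per kb (SD, n = 2) in WT, and *Sp5* at different places. In WT *Sp5* came after *Tcf7*, *Tcf7l1*, *Axin2* and *Cdx1*, at 4.69 ± 0.0957 CPM per kb, where *Tcf7l1*, *Axin2* and *Cdx1* had 16.6, 5.81 and 5.23. In Tbxt Insert ASAY it came second, at 22.3 ± 0.497 CPM per kb, above the 16.3 ± 1.38 of *Tcf7l1*. In Tbxt delE6/delE6 it was also second by its mean of 19.8 ± 10.0, but that spread covers the 17.6 ± 0.884 of *Tcf7l1* and the order of this pair is not set. *Sp8* was lowest in WT, Tbxt delE6/+ and Tbxt Insert ASAY, and *Rnf43* and *Sp8* changed places at the bottom in Tbxt delE6/delE6 (0.650 ± 0.128 and 0.676 ± 0.0114), within their spread. The annotated exons of all transcripts were merged for these lengths, so they are lengths of the gene model and not of the isoforms in use.

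Across the 8 libraries, which fall into 4 pairs of 1 genotype and share those differences, *Lef1* and *Nkd1* followed each other most closely (Pearson r of log2 CPM = 0.96), and *Sp8* went with them (0.86 and 0.81). *Tcf7* ran against *Nkd1* (-0.86) and *Rnf43* against *Sp5* (-0.82). *Sp5* and *Axin2* had an r of 0.62. Over all 12836 other genes of at least 2 CPM, the profiles most like that of *Sp5* were *Gzf1* (0.995), *Ppip5k2* (0.993), *Rbm19* (0.991), *Zfp629* (0.991) and *Rai1* (0.990). For *Axin2* they were *Fzd10* (0.980), a Frizzled receptor, *Ints7* (0.970), *Zfp503* (0.970), *Mbp* (0.963) and *Mdm1* (0.960). The order is set by few libraries: leaving out WT replicate 2 kept 0 of the 5 nearest genes of *Sp5*, and leaving out Tbxt delE6/delE6 replicate 1 kept 0 of the 5 of *Axin2*.

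The rest of the pathway was covered by 109 genes in 9 lists by role, of which 94 were tested with the edgeR quasi-likelihood test and Benjamini-Hochberg adjustment over all genes. Against WT, 22 passed both thresholds in Tbxt delE6/delE6 (7 higher, 15 lower), 24 in Tbxt delE6/+ (14 higher, 10 lower) and 34 in Tbxt Insert ASAY (17 each way). These are 23.4%, 25.5% and 36.2% of the 94, beside 12.7%, 13.5% and 21.3% of all tested genes. The first count was lower without Tbxt delE6/delE6 replicate 2, and so was the share of all tested genes called. The median log2 fold change of the 94 was -0.03, 0.11 and -0.11. The pathway lists were chosen with earlier results of these libraries known, so these shares and the p-values of their genes are not an independent test.

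Among 13 tested Wnt ligands, *Wnt6* rose in all 3 lines, from 7.62 and 7.85 CPM in WT to 16.7 and 22.4 in Tbxt delE6/delE6, 14.0 and 14.0 in Tbxt delE6/+, and 14.9 and 15.1 in Tbxt Insert ASAY. Its log2 fold changes were 1.34 (adjusted p = 3.55e-05), 0.85 (0.000333) and 0.96 (8.68e-05) by edgeR. *Wnt8a*, a ligand of the primitive streak, rose in Tbxt delE6/+ (1.31 ± 0.137, adjusted p = 1.34e-05) and Tbxt Insert ASAY (1.26 ± 0.137, adjusted p = 1.63e-05), with a value of 0.31 in Tbxt delE6/delE6. *Wnt5b*, a ligand best known outside the β-catenin branch, rose in Tbxt Insert ASAY (1.06, adjusted p = 0.0018); its rise in Tbxt delE6/delE6 (0.73, adjusted p = 0.0271) was 0.23 without replicate 2 and was lost. *Wnt7b* fell in Tbxt delE6/+ (-1.17, adjusted p = 0.00168) and *Wnt9a* fell in Tbxt delE6/+ (-0.78, adjusted p = 0.000136) and Tbxt Insert ASAY (-0.97, adjusted p = 2.16e-05). In all 2, 5 and 6 of the 13 ligands passed in Tbxt delE6/delE6, Tbxt delE6/+ and Tbxt Insert ASAY (15.4%, 38.5% and 46.2%, beside 12.7%, 13.5% and 21.3% of all tested genes), so that the share in Tbxt delE6/delE6 was near that of all genes. *Wnt3a*, the main ligand of the tail bud, was not tested, with 2 to 9 reads a library.

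Ligand release and receptors changed in both directions. Of 4 tested genes of ligand release and R-spondins, 3, 1 and 4 passed in Tbxt delE6/delE6, Tbxt delE6/+ and Tbxt Insert ASAY, where 12.7%, 13.5% and 21.3% of all tested genes did. *Porcn*, the acyltransferase that lipidates Wnt proteins, fell in Tbxt delE6/delE6 (log2 fold change -1.24, adjusted p = 0.000314 by edgeR) and Tbxt Insert ASAY (-1.07, adjusted p = 0.000287). *Wls*, which carries Wnt proteins to the surface, fell in Tbxt delE6/+ and Tbxt Insert ASAY, by 0.66 on the log2 scale in each (adjusted p = 1.42e-05 and 1.29e-05). *Rspo1*, an R-spondin that keeps Rnf43 from Frizzled receptors, rose in Tbxt delE6/delE6 (0.70, adjusted p = 0.00323; 0.48 and lost without replicate 2) and Tbxt Insert ASAY (0.88, adjusted p = 0.000358), the lines in which *Rnf43* was lower. Of the 18 receptors and co-receptors, 5, 7 and 8 passed in Tbxt delE6/delE6, Tbxt delE6/+ and Tbxt Insert ASAY (27.8%, 38.9% and 44.4%, beside the same shares of all genes, 12.7%, 13.5% and 21.3%). *Ror1*, a receptor for Wnt5a, went from 2.20 and 1.97 CPM in WT to 7.53 and 7.32 CPM in Tbxt delE6/+ (1.83 ± 0.165, adjusted p = 3.95e-06). *Fzd5* fell and *Fzd6* rose in Tbxt Insert ASAY (-0.83 and 1.06, adjusted p = 2.19e-05 and 0.000702). *Fzd10*, whose profile was nearest to that of *Axin2*, rose in Tbxt delE6/+ (0.76, adjusted p = 0.00193) and Tbxt Insert ASAY (0.73, adjusted p = 0.00152).

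**Figure D4:**
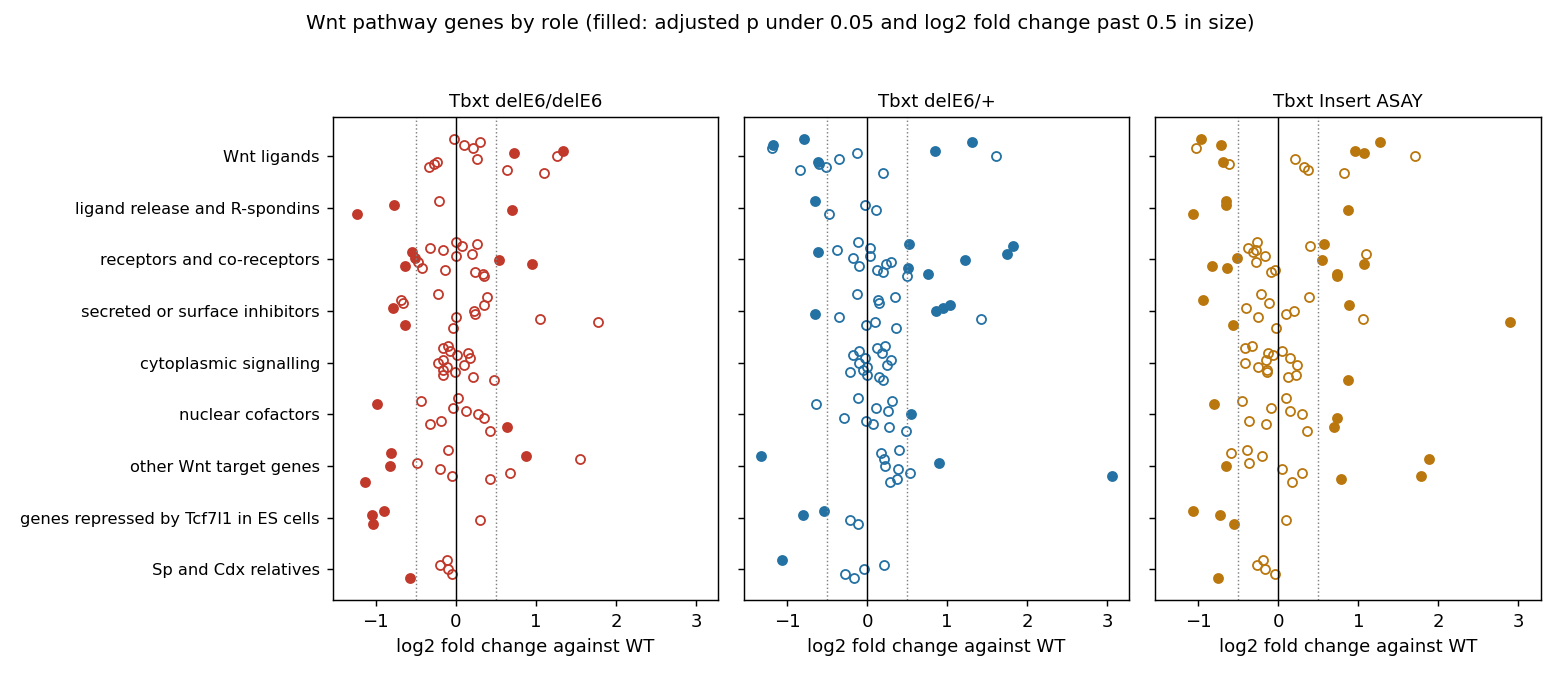
Log2 fold change against WT (x axis) of the 94 tested Wnt pathway genes, in rows by role (y axis) and 1 panel for each mutant line; each circle is a gene, and filled circles passed both thresholds. Filled circles number 22, 24 and 34 in Tbxt delE6/delE6, Tbxt delE6/+ and Tbxt Insert ASAY, with 0, 0 and 1 among cytoplasmic signalling genes.

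The extracellular inhibitors included the soluble Frizzled-related proteins, which bind Wnt ligands. *Sfrp2* rose in Tbxt delE6/+ (1.04 ± 0.0927, adjusted p = 3.51e-06 by edgeR) and Tbxt Insert ASAY (0.88 ± 0.0929, adjusted p = 1.4e-05). *Sfrp2* lies on chromosome 3, as *Lef1* does. So does *Wls*, which fell in both of these lines. *Sfrp1* went in opposite directions, at 31.2 and 26.6 CPM in WT, 20.6 and 13.2 CPM in Tbxt delE6/delE6 and 57.9 and 54.1 CPM in Tbxt delE6/+, with log2 fold changes of -0.78 (adjusted p = 0.00165; -0.49 and lost without replicate 2) and 0.95 (adjusted p = 0.000158). The direct comparison of Tbxt delE6/+ with Tbxt delE6/delE6 gave 1.74 (adjusted p = 1.09e-06). *Notum*, an enzyme that strips the lipid from Wnt proteins and is itself a Wnt target, rose in Tbxt delE6/+ (0.86, adjusted p = 0.00213). *Dkk3* fell in Tbxt delE6/delE6 and Tbxt Insert ASAY (-0.64 and -0.57, adjusted p = 0.000446 and 0.000402; the latter was -0.46 and lost without Tbxt Insert ASAY replicate 1). Of the 13 tested inhibitors 2, 4 and 4 passed in Tbxt delE6/delE6, Tbxt delE6/+ and Tbxt Insert ASAY (15.4%, 30.8% and 30.8%, beside 12.7%, 13.5% and 21.3% of all tested genes), the first share being near that of all genes; DESeq2 called 2, 3 and 2.

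The cytoplasmic core of the pathway gave 0, 0 and 1 calls of 15 genes in Tbxt delE6/delE6, Tbxt delE6/+ and Tbxt Insert ASAY, where 12.7%, 13.5% and 21.3% of all tested genes were called. Of these genes, which include *Apc*, *Axin1*, *Gsk3b*, *Ctnnb1* and the Dishevelled genes, edgeR and DESeq2 each called 0 in Tbxt delE6/delE6 and in Tbxt delE6/+, although 10 and 8 had an unadjusted p under 0.05 in edgeR. The call in Tbxt Insert ASAY was *Amer1*, a membrane-bound partner of Apc (0.87, adjusted p = 0.000662 by edgeR). *Ctnnb1*, which encodes β-catenin, had log2 fold changes of 0.11, 0.25 and 0.23, under the fold threshold in each line. The nuclear cofactors gave 2, 1 and 3 calls of 11 (18.2%, 9.09% and 27.3%), near the shares of all genes. *Bcl9l*, an adaptor of β-catenin, rose in Tbxt Insert ASAY (0.70, adjusted p = 0.000962) and in Tbxt delE6/delE6 (0.64, adjusted p = 0.00306; 0.35 and lost without replicate 2).

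Further Wnt targets were called in both directions. *Myc* stood at 7.40 and 8.82 CPM in WT, 13.5 and 16.3 CPM in Tbxt delE6/delE6, 3.41 and 3.07 CPM in Tbxt delE6/+, and 7.51 and 6.51 CPM in Tbxt Insert ASAY, so that it rose in the first line (0.88, adjusted p = 0.000426 by edgeR) and fell in the heterozygous line (-1.32, adjusted p = 4.87e-05). *Ccnd1*, a cyclin of the G1 phase, rose in Tbxt Insert ASAY (0.78, adjusted p = 0.000112). *Cdx2*, a relative of *Cdx1*, had 3 and 9 reads in WT, 8 and 3 in Tbxt delE6/delE6, 54 and 41 in Tbxt delE6/+, and 25 and 17 in Tbxt Insert ASAY, and rose in the last 2 lines (3.06 and 1.78, adjusted p = 0.00017 and 0.0118). Also higher by edgeR were *Fgf8*, a growth factor of the streak and tail bud, in Tbxt delE6/+ (0.90, adjusted p = 0.0122) and *Mixl1*, a homeobox gene of the streak, in Tbxt Insert ASAY (1.88, adjusted p = 0.0126). *Fgf8* had 43 and 34 reads in WT and 65 and 69 in Tbxt delE6/+, and DESeq2 did not call it there. *Mixl1* had 7 and 5 reads in WT and 16 and 29 in Tbxt Insert ASAY, where DESeq2 called 2 targets higher and edgeR 3. *Ephb3*, an ephrin receptor, fell in Tbxt delE6/delE6 and Tbxt Insert ASAY (-0.83 and -0.66, adjusted p = 6.53e-05 and 7.19e-05), and *Ascl2* fell in Tbxt delE6/delE6 (-1.13, adjusted p = 0.00236). Of the 11 tested targets outside the listed genes, *T* included, 4 passed in Tbxt delE6/delE6 (1 higher, 3 lower), 3 in Tbxt delE6/+ (2 higher, 1 lower) and 4 in Tbxt Insert ASAY (3 higher, 1 lower), or 36.4%, 27.3% and 36.4%, beside 12.7%, 13.5% and 21.3% of all tested genes.

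Of 4 pluripotency genes known to be repressed by Tcf7l1 in ES cells, 3 fell in Tbxt delE6/delE6, 2 in Tbxt delE6/+ and 3 in Tbxt Insert ASAY, and 0 rose in edgeR and in DESeq2; 6.59%, 6.89% and 9.85% of all tested genes were called lower. *Nanog* fell in all 3 lines, with log2 fold changes of -1.04, -0.80 and -0.73 (adjusted p = 0.00026, 0.000905 and 0.000966 by edgeR). *Tfcp2l1* fell by 0.90, 0.54 and 1.07 on the log2 scale (adjusted p = 6.84e-05, 0.000878 and 5.44e-06). *Esrrb* fell in Tbxt delE6/delE6 and Tbxt Insert ASAY (-1.04 and -0.56, adjusted p = 5.47e-06 and 6.35e-05), and *Klf2* was under the fold threshold, at 0.30, -0.22 and 0.10. *Tcf7l1* itself, as given above, differed little between the genotypes. Among the 5 tested Sp relatives of the listed genes, *Sp1* fell in Tbxt delE6/delE6 (-0.57, adjusted p = 4.7e-05 by edgeR) and Tbxt Insert ASAY (-0.76, adjusted p = 2.24e-06), and *Sp6* fell in Tbxt delE6/+ (-1.06, adjusted p = 1.28e-05). That is 1 of 5 (20%) in each line, beside 12.7%, 13.5% and 21.3% of all tested genes in Tbxt delE6/delE6, Tbxt delE6/+ and Tbxt Insert ASAY.

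Markers of other cell types were also called in these lines, where 12.7%, 13.5% and 21.3% of all tested genes were called in Tbxt delE6/delE6, Tbxt delE6/+ and Tbxt Insert ASAY. Of 4 neural progenitor markers, 3 rose in Tbxt delE6/+, 1 rose in Tbxt delE6/delE6 and 0 passed in Tbxt Insert ASAY in edgeR and DESeq2. In Tbxt Insert ASAY 1 had an unadjusted p under 0.05 by edgeR, and in Tbxt delE6/+ all 4 did. Against Tbxt delE6/delE6, Tbxt delE6/+ had 3 called higher and 1 lower. Their summed level was 101 to 103 CPM in WT, 104 and 103 CPM in Tbxt delE6/+, 146 and 195 CPM in Tbxt delE6/delE6, and 116 and 126 CPM in Tbxt Insert ASAY. The sum in Tbxt delE6/+ stayed near WT, so it does not show the 3 calls. Feeder fibroblast markers summed to 22.3 and 25.9 CPM in WT, 24.6 and 24.3 CPM in Tbxt delE6/+, 15.4 and 18.5 CPM in Tbxt delE6/delE6, and 13.3 and 12.8 CPM in Tbxt Insert ASAY, where 4 of the 5 tested were called lower; 2 were called lower in Tbxt delE6/delE6, and in Tbxt delE6/+ 2 were called higher and 1 lower. DESeq2 called fewer of them, 2 lower in Tbxt Insert ASAY, 1 lower in Tbxt delE6/delE6 and 1 higher in Tbxt delE6/+. Primitive streak and early mesoderm markers summed to 17.6 and 19.7 CPM in WT, 23.6 and 22.8 CPM in Tbxt delE6/delE6, 11.1 and 13.0 CPM in Tbxt delE6/+, and 17.3 and 20.3 CPM in Tbxt Insert ASAY, and 3 of the 7 had enough reads to test. Of these, 1 was called higher and 1 lower in Tbxt delE6/delE6, 1 higher and 2 lower in Tbxt delE6/+ (1 lower by DESeq2), and 1 lower in Tbxt Insert ASAY. The 5 endoderm markers summed to 8.87 to 14.0 CPM over the 8 libraries, with 1 called lower in Tbxt delE6/delE6, 1 higher in Tbxt delE6/+ (0 by DESeq2) and 0 in Tbxt Insert ASAY by edgeR (1 at an unadjusted p under 0.05, and 0 by DESeq2). Of the 6 ES cell markers edgeR called 1 lower in Tbxt delE6/delE6, 1 higher and 2 lower in Tbxt delE6/+, and 0 in Tbxt Insert ASAY (4 at an unadjusted p under 0.05 in the last, and 0 by DESeq2). The part of such cells in the levels of the Wnt response genes was not tested, and in bulk RNA fewer cells of a type and less RNA per cell cannot be told apart.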

How the data were processed

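RNA sequencing counts were analysed for 8 libraries of mouse ES cells, 2 per genotype, grouped by their labels. The authors prepared strand-specific poly(A) libraries, mapped reads to mm10 with STAR 2.7.2a and deposited the raw read counts per gene, whole numbers without normalization. The counts of the strand opposite to the first read were used; the other strand held 4.11% to 4.78%. STAR's summary lines, absent from 1 file, were left out. Of the 48440 gene IDs, 48058 matched GENCODE M 21.

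In edgeR 4.0.16 (R 4.3.3), all 8 libraries entered 1 quasi-likelihood fit with TMM factors (0.975 to 1.03) and filterByExpr defaults (count 10, total 15), leaving 17049 genes, with Benjamini-Hochberg adjustment. Thresholds (0.05; log2 fold change 0.5) follow the study, which used DESeq2. CPM were computed on library sizes scaled by these factors; a prior count of 2 was added before taking log2 CPM for correlations. In simulated counts for Tbxt delE6/delE6 against WT over 17049 genes, 49 of 50, 49 of 50, 50 of 50 and 50 of 50 genes changed by log2 0.75, 1, 1.5 and 2 were called, with 6 unchanged genes. The simulation gave each gene 1 spread shared by all genotypes and changed only genes of at least 2 CPM. It therefore lacks the larger spread between the real Tbxt delE6/delE6 libraries, and its counts may not hold for them.

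The listed genes, the pathway lists and the marker lists (ES cell, feeder fibroblast, primitive streak and early mesoderm, endoderm, neural progenitor) were chosen with earlier results of these data known. Named pathway genes are up to 3 per list and comparison with the largest log2 fold change past both thresholds, a mean of at least 2 CPM and no overlap between the genotypes. Genes given as not passing, *Cdx2*, *Fgf8*, *Mixl1*, *Wnt9a* in Tbxt delE6/+ and *Wnt6* in Tbxt Insert ASAY were named beyond that rule after their values were seen. Alternatives were DESeq2 1.42.0, its size factors, TMM without chromosome 3, no filter, 10 counts in every library, unstranded counts, 2-genotype fits, TREAT, a replicate block and leaving out each library; those for the *Lef1* neighbours and for the replicate difference were mostly chosen after seeing the data. RefSeq upstream windows are on GRCm38.p6. Isoforms were not analysed here.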

Additional observations from a re-analysis of the deposited data

How the results depend on the processing

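The log2 fold changes of the 9 tested listed genes moved by less than the spread between replicates in 840 alternative values and by more in 24. A TREAT test against a log2 fold change of 0.5 is stricter by construction. It lowered the pathway counts against WT from 22, 24 and 34 to 6, 9 and 13 (Tbxt delE6/delE6, Tbxt delE6/+, Tbxt Insert ASAY). Those of Tbxt delE6/+ and Tbxt Insert ASAY against Tbxt delE6/delE6 fell from 35 and 7 to 15 and 2. That of Tbxt Insert ASAY against Tbxt delE6/+ fell from 33 to 12. The listed genes passing fell to 1, 2 and 2 against WT and to 0 for Tbxt Insert ASAY against Tbxt delE6/delE6. Of all tested genes TREAT called 1.57%, 4.55% and 7.13% against WT in the same order. For Tbxt delE6/+ and Tbxt Insert ASAY against Tbxt delE6/delE6 it called 9.08% and 0.786%, and for Tbxt Insert ASAY against Tbxt delE6/+ 12.9%. Leaving out each library gave pathway counts of 12 to 33, 18 to 27 and 26 to 37 against WT, 26 to 40 and 4 to 16 against Tbxt delE6/delE6, and 25 to 34 for Tbxt Insert ASAY against Tbxt delE6/+. Without Tbxt delE6/delE6 replicate 2, the count for this line against WT was lowest and that for Tbxt Insert ASAY against it was highest. The latter count was lowest without Tbxt Insert ASAY replicate 1. In each of these fits the share of all tested genes called moved the same way. Listed genes passing ranged from 2 to 2, 3 to 5 and 4 to 5 against WT (3 without WT replicate 2 and without Tbxt delE6/+ replicate 2), 4 to 4 and 1 to 3 against Tbxt delE6/delE6 (3 without its replicate 2), and 5 to 6 for Tbxt Insert ASAY against Tbxt delE6/+. The *Lef1* excess over its neighbours in Tbxt delE6/+ ran from 0.54 without WT replicate 2 to 0.86 without WT replicate 1. The cause was not tested. Among pathway genes, single alternative values were compared only for *T* and for those that met the naming rule given above in any comparison. Of these values, 3706 stayed on their side of the threshold, 97 lost a call and 31 gained one, and 0 reversed while called. The rule picks large fold changes between genotypes that do not overlap, so these counts do not describe the other pathway genes.

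Replicate numbers mark no shared origin in the labels, and the deviations of same-numbered libraries correlated at -0.10 to 0.067 between genotypes. With the number as a replicate block the pathway counts were 22, 24 and 33 against WT, and 35, 7 and 33 between the mutant lines; the counts of listed genes were those without it.

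Having 2 libraries a genotype limits every estimate, and counts under about 100 reads, as for *Sp8* and *T*, leave wide errors.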
